A study of Mus musculus with 2 samples.

Results

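Ribosomes are assembled in the nucleolus, where RNA polymerase I (Pol I) copies the ribosomal DNA and a large crew of proteins cuts, modifies and folds the transcript. The work is paced by growth signals, many of which act through the transcription factor MYC, and it is known to change when progenitor cells divide or differentiate. Here 10 genes of this machinery were followed among the 44291 genes of the deposited tables, namely Myc, the nucleolar chaperone genes Ncl and Npm1, the small nucleolar ribonucleoprotein (snoRNP) genes Fbl, Nop56, Nop58 and Dkc1, and the Pol I genes Polr1a, Polr1b and Ubtf. They were picked by name, and all 10 were found.

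The libraries came from primary FAPs (fibro-adipogenic progenitors), stromal cells of muscle from which fat cells can arise. Both libraries were from wild-type mouse cells, which the methods of the study describe as sorted from hind limb muscle and whose mice it names as C57BL/6. One culture received platelet-rich plasma (PRP) and the other received vehicle (control), and both were then kept in adipogenic medium containing insulin (10 μg/ml), dexamethasone (0.25 μM), IBMX (0.5 mM) and fetal bovine serum (20%). The labels say PRP, while the study's text speaks of exosomes prepared from human PRP, and the time of harvest was not given in the sources used here. Each group has 1 library, so no test of the treatment was possible, there is no replicate error, and every difference below is between 2 libraries. In bulk RNA a change per cell and a change in the mix of cells cannot be told apart.

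Depth and cell identity were checked first. Reads assigned to genes came to 40120843 with PRP and 34139741 without it. Of 10 FAP and fibroblast markers 9 had a mean of at least 1 FPKM (fragments per kilobase of exon, scaled to the assigned reads of the library), and all 9 were lower with PRP, the 10 summing to 521 against 818 FPKM. Leukocyte, endothelial and platelet markers summed to at most 10.6 FPKM per list, with Pax7 and Ppbp at 0 in both libraries. Of these lists the endothelial one differed most, at 9.39 FPKM with PRP against 5.29 FPKM, with Kdr at 4.23 against 1.499 FPKM and the defining genes Pecam1 and Cdh5 at no more than 0.188 FPKM. Muscle markers summed to 38.4 against 39.7 FPKM, of which Myh4 gave most. Of 7 adipocyte markers that passed, 5 were higher with PRP, but only Pparg (ratio 1.33, 1.15 to 1.53) and Fabp4 (ratio 1.21, 1.15 to 1.27) beyond counting error. Lpl was lower (67.4 against 83.3 FPKM) beyond counting error, and the other 4 were within it. The mitochondrial genome held 2.06% of summed FPKM with PRP against 3.70%. The part of these marker and mitochondrial differences in the results below was not tested.

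All 10 genes had a higher FPKM in the PRP library. The ratio of PRP over control ran from 1.10 for Ubtf to 1.79 for Myc, with a median of 1.38, and none reached 2-fold. The 95% interval of the ratio, which covers counting error only, lay above 1 for all 10, including Polr1b with a mean of 0.957 FPKM. Among the 12369 genes with whole reads and a mean of at least 1 FPKM it lay above 1 for 26.2% and below 1 for 26.1%. Such an interval narrows with depth, so these shares depend on level too. Among genes with a mean of at least 1 FPKM, the median with PRP was 33.1 FPKM for 9 of the 10, against 5.39 FPKM for all. On the log2(FPKM + 1) scale, 9 of the 10 genes passed the filter of a mean of at least 1 FPKM, and Polr1b did not. All 9 were higher, against 50.9% of all 13401 genes that passed (49.1% were lower), and their median log2 fold change was 0.52, against 0.0065 for all genes. On this scale 8 of the 9 were at least 25% higher, against 16.2% of all genes, while 14.1% of all genes were lower by as large a factor (at least 20% lower). At least 1.5-fold higher were 3 of the 9, Myc, Nop58 and Nop56, against 6.15% of all genes, with 4.57% at least 1.5-fold lower. No gene of the 9 reached 2-fold, which 2% of all genes did upward and 0.828% downward.

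**Figure D1:**
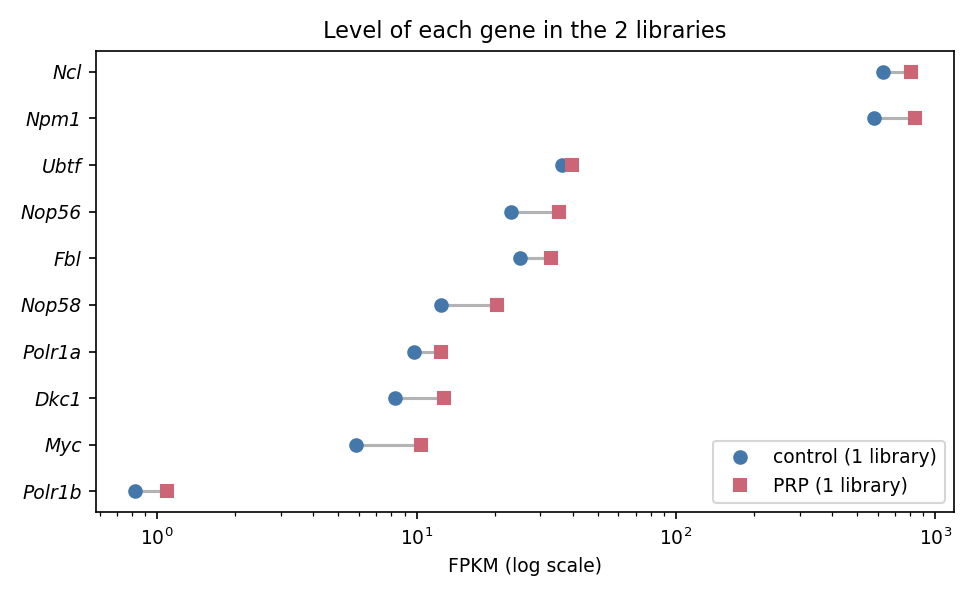
FPKM of the 10 genes on a logarithmic axis in the control library (circles) and the PRP library (squares), 1 library each, ordered by mean level. Each square lies to the right of its circle, and the levels run from 0.822 FPKM for Polr1b in the control library to 835 FPKM for Npm1 in the PRP library.

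Myc encodes the growth-driven transcription factor that activates ribosome biogenesis genes as a partner of MAX. Myc (ENSMUSG00000022346, mm10 chr15:61985391-61990374, plus strand) stood at 10.4 FPKM with PRP against 5.83 FPKM in the control, the order in which all values are given. They rest on 1135 and 541 reads, and the ratio of 1.79 had an interval from 1.54 to 2.07. It was the highest ratio of the 10 genes. Of all genes that passed the filter, 3.72% had a log2 fold change as high as that of Myc (0.74) or higher.

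The abundant chaperones came next. Nucleolin (Ncl, ENSMUSG00000026234, chr1:86344719-86359400, minus strand) binds nascent ribosomal RNA and is among the most abundant nucleolar proteins. Its level was 804 FPKM with PRP against 629 FPKM, a ratio of 1.28 (1.27 to 1.29). Nucleophosmin (Npm1, ENSMUSG00000057113, chr11:33152287-33163206, minus strand) is a histone and ribosome chaperone of the outer nucleolus. It had 835 against 582 FPKM, a ratio of 1.43 (1.41 to 1.46). These genes stood at ranks 31 (Npm1) and 35 (Ncl) of all genes by FPKM with PRP, and at ranks 65 and 55 in the control. Because of their depth their intervals were the narrowest, and the intervals of Ncl and Npm1 did not overlap.

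The core proteins of the snoRNPs, which modify ribosomal RNA at sites chosen by guide RNAs, were all higher. Fibrillarin (Fbl, ENSMUSG00000046865, chr7:28169710-28179269, plus strand) is the 2′-O-methyltransferase of the box C/D class and had 33.1 against 24.998 FPKM, a ratio of 1.32 (1.246 to 1.40). Nop56 (ENSMUSG00000027405, chr2:130274430-130279313, plus strand) had 35.5 against 23.2 FPKM, a ratio of 1.53 (1.44 to 1.63). Nop58 (ENSMUSG00000026020, chr1:59684971-59719044, plus strand) had 20.5 against 12.4 FPKM, a ratio of 1.66 (1.57 to 1.74). NOP56 and NOP58 are related scaffold proteins that hold fibrillarin on the guide RNA. Dyskerin (Dkc1, ENSMUSG00000031403, chrX:75095854-75109777, plus strand), the pseudouridine synthase of the box H/ACA class, had 12.7 against 8.29 FPKM, a ratio of 1.54 (1.39 to 1.70). Within the box C/D core the interval of Fbl lay below those of Nop56 and Nop58, while those of Nop56 and Nop58 overlapped.

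The genes of the polymerase and its cofactor came last by role. POLR1A and POLR1B form the catalytic centre of Pol I, and UBTF is the HMG-box protein that keeps ribosomal DNA open and recruits the polymerase. Polr1a (ENSMUSG00000049553, chr6:71909053-71984935, plus strand) had 12.4 against 9.75 FPKM, a ratio of 1.28 (1.21 to 1.35). Polr1b (ENSMUSG00000027395, chr2:129100995-129126594, plus strand) had 1.09 against 0.822 FPKM from 254 and 163 reads, and its ratio of 1.33 had an interval from 1.002 to 1.79. At this depth Polr1b was barely separable from no difference. Ubtf (ENSMUSG00000020923, chr11:102304560-102319742, minus strand) was among the more abundant of the 10, at 39.9 against 36.4 FPKM, yet had the lowest ratio, 1.10 (1.05 to 1.14). The interval of Ubtf was below those of the other genes except Polr1b, which it overlapped.

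**Figure D2:**
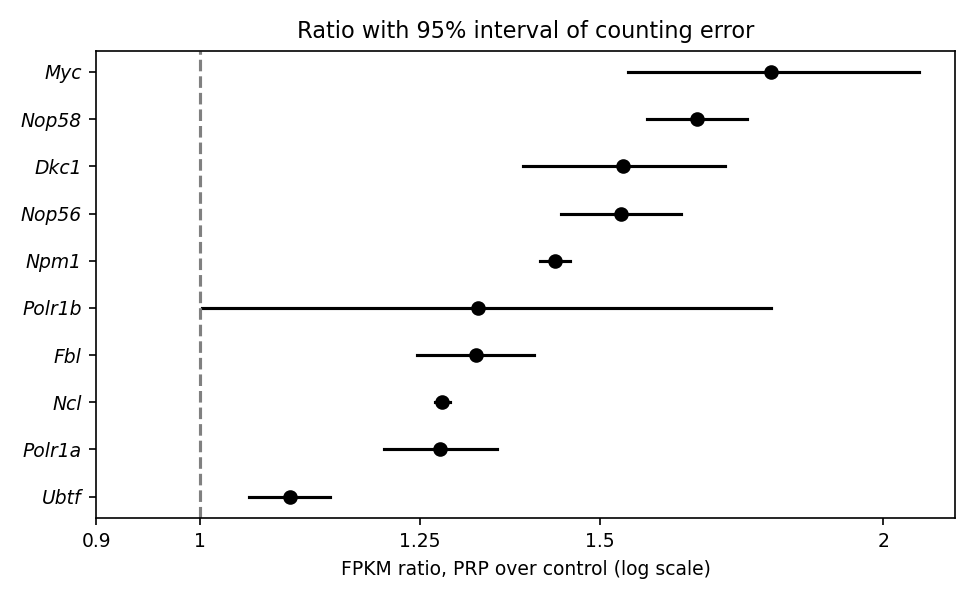
Ratio of PRP over control FPKM for the 10 genes (points) on a logarithmic axis, with exact 95% binomial intervals of counting error (lines) and a dashed line at no difference. Neighbours in this order have overlapping intervals except Polr1a and Ubtf, and the interval of Polr1b begins at 1.002.

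Ordered by ratio, the genes were Myc, Nop58, Dkc1, Nop56, Npm1, Polr1b, Fbl, Ncl, Polr1a and Ubtf. Intervals of neighbours in this order overlapped in every case but the last, from Polr1a (1.28) to Ubtf (1.10). The differences between neighbours were not tested. The highest ratio was 1.63 times the lowest. Summed over the 10 genes, FPKM came to 1805 with PRP against 1333, of which Ncl and Npm1 held most.

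Several of these genes have processed pseudogenes that resemble their mRNA and can take or lend reads. For Fbl, the pseudogene Fbl-ps2 (chr17:6121208-6122164), 96.9% identical over 984 aligned bases, was listed at 93.3 against 61.4 FPKM, above Fbl itself. Reads of the Fbl pseudogenes made up 39.1% of the summed Fbl and pseudogene reads with PRP against 35.9%. The level of Fbl is therefore uncertain, but the ratio of the summed reads, 1.39 (1.33 to 1.46), was also above 1. With pseudogene reads summed for both genes, the interval of Fbl overlapped that of Nop56 (1.45 to 1.63), so the separation of these genes given above was lost. The summed interval of Fbl still lay below that of Nop58 (1.57 to 1.74). For Npm1, 10 pseudogenes were found, which held 1.89% of the summed reads with PRP against 1.91%, and the summed ratio was again 1.43. For Nop56, 6 pseudogenes held 4.01% and 3.86% of the summed reads, and the summed ratio was 1.54. The 2 Dkc1 pseudogenes had 2 reads with PRP and 0 in the control.

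MYC and MAX bind the E-box CACGTG and, less tightly, variants of it, so the promoters were searched for these letters. RefSeq windows (GRCm38.p6) from 250 bases before to 50 bases after each annotated start were at hand for 7 of the 10 genes, that is Ncl, Nop56, Nop58, Dkc1, Polr1a, Polr1b and Ubtf. Besides CACGTG, the variant CACGCG was searched on both strands, together with the variant CATGTG and the variant CACGAG. These motifs cannot lie over the same 6 bases. None of the 7 genes had CACGTG, which 8.09% of 27025 genes with a window and 12.1% of those that passed the filter had. CACGCG was found for Ubtf, CATGTG for 2 of the 7 genes, and CACGAG for Ncl, Nop56, Nop58 and Polr1b. Of all genes with a window, 10.5% had CACGCG, 15.9% had CATGTG and 7.47% had CACGAG. Among those that passed the filter the shares were 20.2%, 10.2% and 10.1%. As examples, stretches of 30 bases around a match that lie wholly before a start are shown for Nop56 and Ubtf, 5′ to 3′ on the gene's strand and with the match in capitals. The Ubtf stretch lies before an annotated start inside the gene, not before the gene's outer 5′ end.
Nop56 (chr2:130274162-130274191, plus strand): aagCACGAGgaacgaagaagggtggtctcc
Ubtf (chr11:102316706-102316735, minus strand): gagggcgggagctagctgCACGCGggagct

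The small subunit processome genes, taken up below, had CACGTG in 14 of 42 with a window (33.3%). Shares were similar in some other lists, at 3 of 7 Pol III subunits (42.9%), 7 of 18 MYC targets outside the nucleolus (38.9%) and 4 of 11 MYC network genes (36.4%). They were lower at 20.9% of large subunit factors, 16.7% of Pol I subunits and 14.3% of Pol I factors. Ribosomal protein genes had 10.3% and proliferation genes 7.14%. In the box C/D, box H/ACA and chaperone lists it was found in 0 of 9, 0 of 5 and 0 of 5 genes. Examples with the match before a start are shown in the order of their fold change, the capitals marking CACGTG. The Wdr46 stretch lies before an annotated start inside the span of its gene model. The log2 fold change was no higher with the motif, at a median of 0.31 over the 14 genes with it and 0.42 over the 28 without. A match is a run of letters only and says nothing about binding in these cells.
Aatf (chr11:84513688-84513717, minus strand): gctccaagcggtCACGTGctccggcgcgct
Utp18 (chr11:93885769-93885798, minus strand): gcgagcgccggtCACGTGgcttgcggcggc
Wdr46 (chr17:33940693-33940722, plus strand): ctactcaagggagtttcgCACGTGgatcgt
Nol11 (chr11:107189407-107189436, minus strand): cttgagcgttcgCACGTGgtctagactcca

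To see how far the pattern of the 10 genes extended, the other genes of each step were described from lists written from general knowledge. Genes named from a list were chosen by log2 fold change, on which a low gene stands closer to 0 than by its ratio. The 7 nucleolar lists together held 146 genes beside the 10, and 143 of them passed the filter. Of these 143 genes, 129 were higher (90.2%, against 50.9% of all genes) and 14 lower with PRP, and the median log2 fold change was 0.34. At least 25% higher were 79 (55.2%, against 16.2% of all genes) and 1 was at least 20% lower. The interval of the ratio lay above 1 for 104 of the 140 genes with whole reads (74.3%) and below 1 for 5. Over all genes with whole reads these shares were 26.2% and 26.1%. Intervals narrow with depth, and the 143 genes had a median of 15.6 FPKM with PRP, against 5.39 FPKM for all genes that passed. Most changes were small on the log2(FPKM + 1) scale. At least 1.5-fold higher were 20 of the 143 (14.0%, against 6.15% of all genes). At least 2-fold higher was 1, Tma16 (0.699%, against 2% of all genes).

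**Figure D3:**
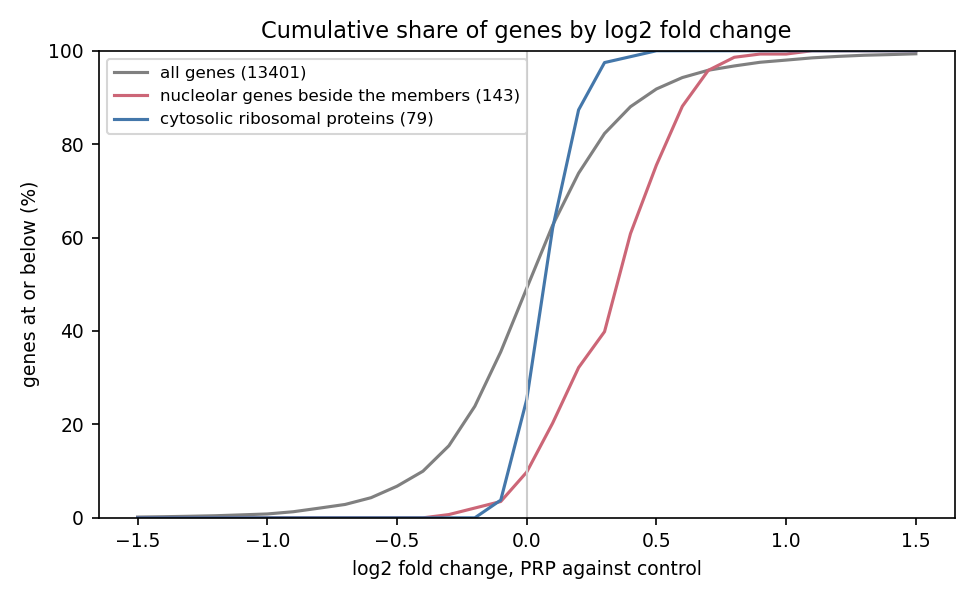
Cumulative share of genes (percent, y axis) at or below each log2 fold change of PRP against control (x axis), for all genes that passed the filter, for the 143 nucleolar genes beside the 10, and for 79 ribosomal protein genes. At a log2 fold change of 0 the curves stand at 49.1%, 9.79% and 25.3%.

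The small subunit processome, which folds and cleaves the nascent precursor of the small subunit, was higher in nearly every gene. All 51 genes passed the filter and 50 were higher with PRP (median log2 fold change 0.38), 30 of them by at least 25% (58.8%), and none was 20% lower. Rrp9, a protein of the U3 snoRNP that guides the early cleavages, led it with 68.8 against 37.4 FPKM (ratio 1.84, 1.74 to 1.94). Next by log2 fold change were Utp14a (28.8 against 17.9 FPKM, ratio 1.61) and Aatf (54.7 against 35.3 FPKM, ratio 1.547), although Utp15 (ratio 1.68) and Pwp2 (ratio 1.63), of lower level, had higher ratios. At the other end, the values of Imp4 (2.96 against 3.05 FPKM), the helicase gene Ddx52 (13.7 against 13.6 FPKM) and the RNA acetyltransferase gene Nat10 (12.5 against 12.2 FPKM) were within counting error of each other.

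Factors that build the large subunit were higher in 44 of 52 genes, with a median of 0.36. Of these genes 32 were at least 25% higher (61.5%) and 1 was at least 20% lower. Tma16 had 10.1 against 4.28 FPKM (ratio 2.35, 2.14 to 2.60), Nle1, of lower level, a ratio of 2.32, and the helicase gene Ddx31 had 3.81 against 1.91 FPKM (ratio 1.99, 1.60 to 2.51). Nop2, which encodes a methyltransferase of the large ribosomal RNA, had 70.2 against 43.5 FPKM (ratio 1.62). The lowest was the nucleolar GTPase gene Gnl3l, at 9.49 against 12.3 FPKM (ratio 0.771, 0.709 to 0.838), whereas the intervals of Ddx51 and Bop1 included 1.

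The remaining partners of the snoRNP and chaperone genes were mostly higher as well, though less clearly in the box C/D list. In the box H/ACA list all 5 genes that passed were at least 25% higher, with Gar1, a core protein beside dyskerin, at 26.5 against 15.2 FPKM (ratio 1.74, 1.55 to 1.95). Naf1, an assembly factor, had a ratio of 1.58, Nop10 a ratio of 1.43 and Nhp2 a ratio of 1.30. In the box C/D list 8 of 10 genes were higher, with a median of 0.35, but without Fbl, Nop56 and Nop58 the median was 0.14. Ruvbl1, an ATPase of snoRNP assembly, had 70.2 against 47.3 FPKM (ratio 1.48), while Znhit6, another assembly factor, was lower at 182 against 223 FPKM (ratio 0.818, 0.796 to 0.841). For Snu13 (ratio 1.13), Znhit3 (ratio 1.04) and Pih1d1 (ratio 0.973) the intervals included 1. Among chaperones and nucleolar GTPases, Gnl3 (nucleostemin) had 31.6 against 18.5 FPKM (ratio 1.71, 1.62 to 1.81), Surf6 a ratio of 1.47, Lyar 1.38 and Npm3 1.26. Nop53, a late large subunit factor, was lower at 71.4 against 78.2 FPKM (ratio 0.914, 0.879 to 0.949).

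**Figure D4:**
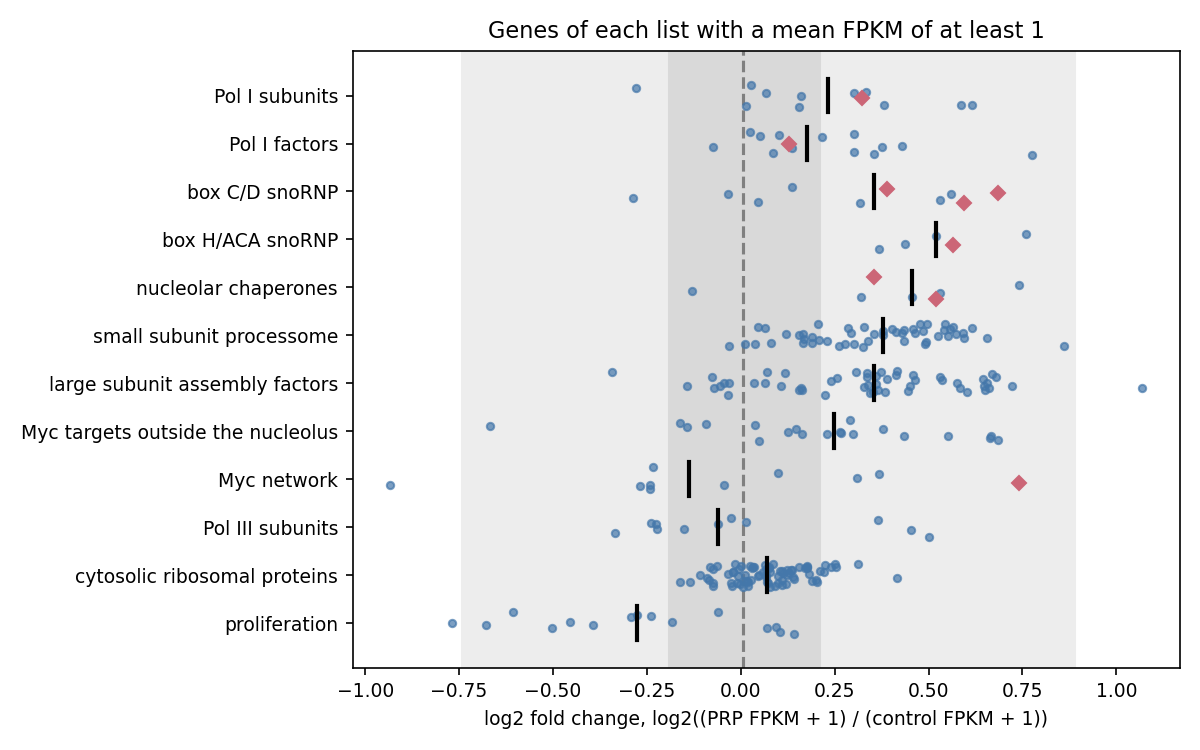
Log2 fold change, log2((PRP FPKM + 1) / (control FPKM + 1)), of each gene with a mean FPKM of at least 1 in 12 lists; diamonds are the 10 genes followed here where they passed, vertical bars are list medians. The dark and light bands hold the middle 50% and 95% of all genes, and the processome median (0.38) lies to the right of the dark band while the median of ribosomal proteins (0.070) lies within it.

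Within Pol I, subunits that belong to this enzyme alone were set beside those shared with other polymerases. All 5 Pol I-only subunits that passed were higher, with a median of 0.32. Polr1f had 11.0 against 6.84 FPKM (ratio 1.61, 1.46 to 1.78), Polr1g had 54.4 against 35.9 FPKM (ratio 1.52, 1.42 to 1.62) and Polr1e had 3.55 against 2.69 FPKM (ratio 1.32, 1.09 to 1.60). For Polr1h, at 5.36 against 4.69 FPKM, the difference was within counting error (0.827 to 1.61). The 7 shared subunits had a median of 0.067. Polr2e (ratio 1.33) and Polr2f (ratio 1.29) were higher beyond counting error, and Polr2l was lower at 11.99 against 14.8 FPKM (ratio 0.813, 0.708 to 0.936). The intervals of Polr1c, Polr1d, Polr2h and Polr2k included 1, that of Polr1d reaching only from 0.961 to 1.08.

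Pol I factors were higher in 13 of 14 genes, with a median of 0.18. Taf1d, a subunit of the promoter selectivity factor, had 40.2 against 23.1 FPKM (ratio 1.74, 1.67 to 1.81), although 13.6% of its exon length is shared with other genes. Nolc1 (ratio 1.35) and the helicase gene Ddx21 (ratio 1.30) were next by log2 fold change. The intervals of Sirt7, Baz2a and Tbp, the lowest of the list, included 1. Baz2a encodes a part of the complex that silences ribosomal DNA.

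Pol III, which makes the 5S ribosomal RNA and transfer RNAs, served as a neighbour. Its 11 subunit genes had a median of -0.061, with 4 higher (36.4%, against 50.9% of all genes) and 7 lower. Their intervals lay above 1 for 3 (27.3%) and below 1 for 4, beside 26.2% and 26.1% over all genes with whole reads. Polr3c (15.8 against 10.8 FPKM, ratio 1.45), Polr3e (5.71 against 3.90 FPKM, ratio 1.46) and Crcp (46.1 against 35.6 FPKM, ratio 1.30) were higher beyond counting error. The catalytic subunit gene Polr3a was lower at 3.39 against 4.53 FPKM (ratio 0.748, 0.653 to 0.859). Polr3g (ratio 0.793), Polr3gl (ratio 0.853) and Polr3b (ratio 0.889) were lower beyond counting error as well, while the interval of Polr3k included 1. Whether Pol I and Pol III genes differ in their response could not be tested with 1 library per group.

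**Figure D5:**
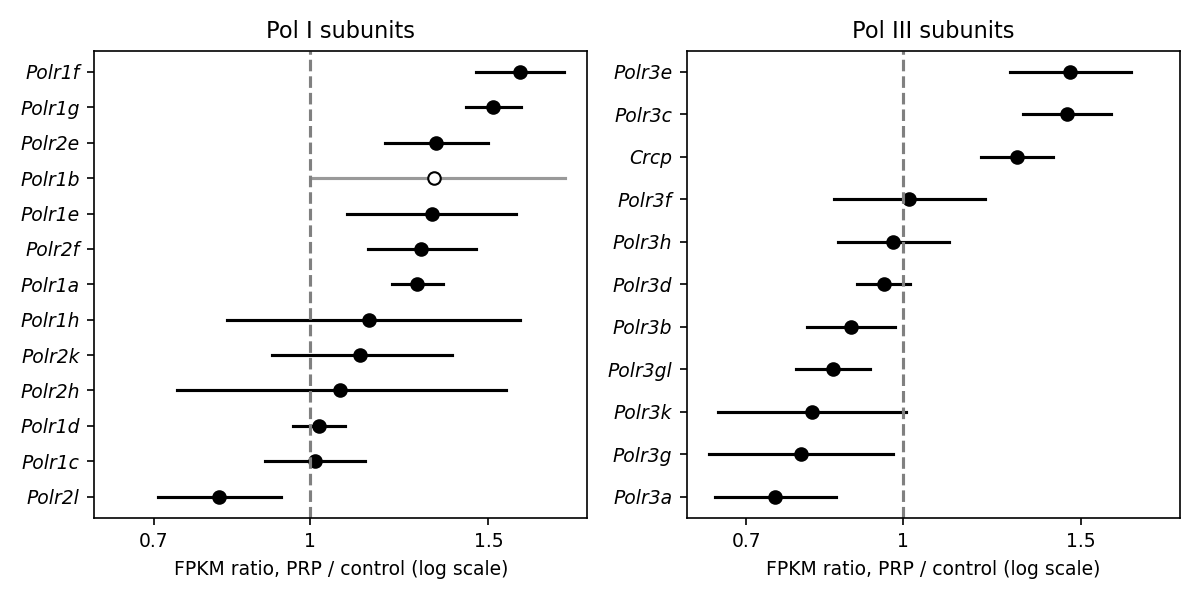
Ratio of PRP over control FPKM on logarithmic axes for 13 Pol I subunit genes (left) and 11 Pol III subunit genes (right), with 95% intervals of counting error; the open circle is Polr1b, which did not pass the filter. Of the 12 Pol I genes that passed, 6 have an interval wholly above 1 and 1 (Polr2l) wholly below. Of the 11 Pol III genes, 3 have an interval wholly above 1 and 4 wholly below.

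Cytosolic ribosomal protein genes, whose products the nucleolar machinery assembles, were mostly higher too, but by far less. All 79 passed the filter, 59 were higher (74.7%, against 50.9% of all genes), and the median was 0.070. Only 1 gene (Rps29, ratio 1.35) was at least 25% higher and none was 20% lower. The interval lay above 1 for 46 (58.2%) and below 1 for 7, against 26.2% and 26.1% of all genes with whole reads. These genes are deeply covered, with a median of 156 FPKM with PRP, so that small differences clear counting error. Rpl12 (ratio 1.245) and Rpl27 (ratio 1.19) came next, and Rps20 (ratio 0.893), Rpl3 (ratio 0.909) and Rpl27a (ratio 0.926) were lowest. Ribosomal protein genes have many near-identical pseudogenes, so single values are uncertain.

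The MYC network was split, with 4 of the 10 genes that passed higher (40%, against 50.9% of all genes) and 6 lower, at a median of -0.14. Max, the obligate partner of MYC, had 40.8 against 32.8 FPKM (ratio 1.246, 1.18 to 1.32) and Mga, another MAX-binding factor, 14.1 against 10.7 FPKM (ratio 1.32, 1.26 to 1.38). Of the MXD and MNT repressors, which bind MAX and compete with MYC, Mxd4 had 8.53 against 17.2 FPKM (ratio 0.496, 0.465 to 0.529). Mxd1 (ratio 0.713), Mxd3 (0.828) and Mnt (0.828) were lower as well, each with an interval below 1. For Mxi1 the interval included 1. The paralogs Mycn and Mycl stayed below 0.3 FPKM in both libraries.

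Genes often named as MYC targets outside the nucleolus were higher in 16 of 20, with a median of 0.25, and 6 were at least 25% higher. Odc1, which controls polyamine synthesis, had 37.7 against 23.1 FPKM (ratio 1.64, 1.53 to 1.75). Tfrc, the transferrin receptor gene, had 9.48 against 5.61 FPKM (ratio 1.69) and Shmt1, of folate metabolism, 2.20 against 1.02 FPKM (ratio 2.16, 1.63 to 2.93). The cell cycle genes Ccnd2 (20.5 against 33.2 FPKM, ratio 0.619) and Cdk4 (ratio 0.888) and the glycolytic gene Ldha (ratio 0.905) were lower.

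Proliferation markers did not share the direction. Of 15 genes 11 were lower with PRP and the median was -0.28, among them Mki67 (22.6 against 39.2 FPKM, ratio 0.577), Ccnb2 (ratio 0.591), Cenpa (ratio 0.5997) and Top2a (ratio 0.645). Of the 14 genes with whole reads, 9 had an interval below 1. Ccna2 (ratio 1.11, 1.02 to 1.21) was the only one with an interval above 1, and those of Pcna, Rrm2, Mcm2 and Mcm3 included it. Nucleolar genes were thus higher in the library with lower mitotic markers, and whether the libraries differ in the share of dividing cells was not tested.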

How the data were processed

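RNA-seq libraries of PRP-treated and control FAPs, 1 each, were analysed. The authors trimmed reads with fastp 0.23.4 and aligned them to mm10 with STAR 2.5.3a, per the labels' processing notes, and featureCounts gave reads per gene. The deposited values are FPKM as the authors computed them. The annotation release and the use of strand in counting are not given in the sources used here. The kit was stranded.

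Gene models came from GENCODE M21 (GRCm38), which held 93.7% of the 44291 identifiers. With its merged exon lengths, FPKM gave whole reads in both libraries, within 0.001 reads, for 26406 of 28160 genes above 0, and for all 10 genes followed. Among genes with up to 8 reads, 79.3% (PRP) and 80.3% (control) had even numbers, so reads were divided by 2 for the intervals. Each interval is the 95% Clopper-Pearson range of the share of fragments that came from the PRP library, turned into a ratio. It covers counting error only and ignores PCR duplicates. Counts served for nothing else, and no count model was run.

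The log2 fold change used a pseudocount of 1, which understates low genes, and a filter of mean FPKM of at least 1. Lists were described by counts and medians beside all genes, without a test. Named were the 10 genes, all Pol I subunits, and from each other list the 3 highest and 3 lowest (all in lists of up to 8 genes). Exceptions are Snu13, Utp15, Pwp2, Nle1, Polr3b, Polr3gl, Cenpa, Mcm2, Mcm3, Mxd3, Mxi1, Mlx, Mlxip, Mycn and Mycl, the genes shown for their promoters, and the markers, which were chosen after their values were seen. The genes, lists and motifs were chosen with earlier results of these data known. Pseudogenes were found with BLAST 2.17.0 (at least 90% identity over at least 200 bases). The procedures were tested on simulated data with Python 3.11.15, NumPy 2.4.6, pandas 2.3.3 and SciPy 1.17.1; figures used matplotlib 3.10.9. Alternatives were pseudocounts of 0.1 and 5, other filters and scalings, and lists without the 10 genes or overlapping genes. Summing pseudogene reads was chosen after seeing the data. Not every promoter stretch with a match is reported here.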

Additional observations from a re-analysis of the deposited data

How the results depend on the processing

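All 9 genes that passed the filter stayed higher in the PRP library under each of the 7 alternatives, and Polr1b made it 10 without a filter. With a pseudocount of 5 the median of the 9 genes was 0.42, that of the processome list 0.23 and that of the box H/ACA list 0.33. With a filter of mean FPKM 5 the Pol I factors had a median of 0.26, and the box C/D list had 0.14 without the 10 genes. The Myc network reversed, from -0.14 to 0.028, without a filter, where the low Mycn and Mycl entered. The number of the 9 genes at least 25% higher went from 8 to 6 on a scale set without the mitochondrial and the 50 highest genes, where 14.6% of all genes were. The number at least 1.5-fold higher was 4 with a pseudocount of 0.1 and 0 with a pseudocount of 5. Over all genes, 4065 were at least 25% higher or 20% lower, or 1912 with a pseudocount of 5 and 2142 with the filter of 5. At 1.5-fold 1436 changed, or 2202 with a pseudocount of 0.1, 522 with 5 and 750 with the filter of 5. At 2-fold 379 changed, or 739, 113 and 210. Undivided reads left all 10 intervals above 1. Medians over all genes stayed from -0.020 to 0.014. No paired analysis was possible because there is 1 library on each side, and depth limits Polr1b most.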

Other observations

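Introns of Nop56, Nop58 and Ncl hold genes of small nucleolar RNAs, the guides on which the snoRNP proteins act. Of the 5 annotated inside Nop56 on its strand, Snord57 had 89 reads with PRP and 53 reads without, Gm23650 had 73 and 52, Gm24451 had 53 and 19, Gm23187 had 43 and 16, and Snord110 had 2 and 0. Each thus had more reads with PRP, but that library had 1.18 times the assigned reads of the control. By FPKM, Gm23650 stood at 26.0 against 21.8. The summed ratio of the 5 per assigned reads was 1.58 (95% interval 1.17 to 2.14), beside 1.53 for Nop56 itself. The 4 inside Nop58 had 22 and 8 reads in sum, with an interval from 0.693 to 10.1 that included 1. The 2 listed inside Ncl, Snora75 and Snord82, had 22 and 19 reads in sum (ratio 0.985, 0.392 to 2.84). The library kit selected mRNA, and mature guide RNAs cannot be told apart here from unspliced host transcripts, so that the share of each in these reads was not tested.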
